A study of Capra hircus with 2 samples.

Results

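Nuclear-encoded subunits of the respiratory chain and ATP synthase, together with the ADP/ATP carrier of the inner mitochondrial membrane, were followed in skeletal muscle of Chinese Xuhuai goats (Capra hircus) at 2 stages of development. The group held 10 RefSeq transcripts, chosen by accession out of the 11663 accessions with reads in either library, and all 10 had reads in both libraries. It covered complex II (SDHA and SDHB), complex III (UQCRC1), complex IV (COX4I1, COX5A, COX5B and COX7A1), ATP synthase (ATP5A1 and ATP5B) and the carrier (SLC25A4). No subunit of complex I was among the 10. RNA sequencing had been carried out on longissimus thoracis, a muscle of the back, with 1 fetal library (day 90, in a pregnancy that lasts 150 days in goats) and 1 library of goats 6 months old. The labels name no treatment and do not say how many animals went into a library. The 6-month label repeats the text on collecting embryos, so how the older muscle was obtained is not known here.

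The gene names came with the list of accessions, which were given as cattle transcripts. The deposited files hold accessions only, and 0 of the 11663 accessions occur in a RefSeq gene table for goat (assembly ARS1.2), which holds 5 of the 10 symbols. The names were therefore not checked against a sequence or a second table, and the 10 are named here as the list gave them. Markers of muscle fibres and of other cell types could not be looked up for the same reason, so the labelled tissue was not checked against markers. Each stage had 1 library, so no difference below has a replicate check and no p-value was computed. Intervals are 95% intervals that cover counting error only and compare these libraries, not the stages. The fetal library held 12811117 unique reads and the 6-month library 9144138.

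Oxidative phosphorylation takes place in the inner membrane of mitochondria. Complexes I and II pass electrons from NADH and succinate to ubiquinone, complex III passes them on to cytochrome c, and complex IV (cytochrome c oxidase) hands them to oxygen. Complexes I, III and IV pump protons, ATP synthase uses the proton gradient to make ATP, and the ADP/ATP carrier exchanges the ATP made for ADP from the cytosol. Most subunits are encoded in the nucleus, and the catalytic core of complex IV is encoded by mitochondrial DNA. In skeletal muscle the content of these complexes differs between fibre types and increases with endurance training, and some subunits have a form typical of heart and muscle, such as COX7A1 of complex IV.

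Of the 10 transcripts, 9 had the higher level at 6 months, as had 2794 of the 9705 accessions compared. Levels are given as RPKM, reads scaled to transcript length and to the unique reads of the library. A transcript was called higher in a library when log2(RPKM + 1) differed by at least 1, about 2-fold. By this rule 8 of the 10 were higher at 6 months, against 9.46% of the 9705 accessions compared (RPKM of 1 or more in one library or both). The accession given as COX5B was higher in the fetal library, as were 35.1% of all accessions compared, and COX4I1 differed by less than the threshold. The median difference, fetal minus 6-month, was -1.80 log2 units over the 10 transcripts and -1.87 without the COX5B accession, beside 0.61 over all accessions compared. In tissue RNA, more cells of a type and more of the RNA per cell cannot be told apart.

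All 10 transcripts were abundant, with a mean RPKM of both libraries of at least 100. Among the 720 accessions at that level, 29.4% were called higher at 6 months and 34.2% in the fetal library, with a median difference of 0.14. Without a threshold, 344 of these 720 had the higher level at 6 months. This abundance limit was set after the values were seen. The 10 transcripts together took 73563 reads, 0.57% of the fetal library, and 120654 reads, 1.32% of the 6-month library. Without the COX5B accession, which alone had 29570 of the fetal reads, the shares were 0.34% and 1.27%.

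**Figure D1:**
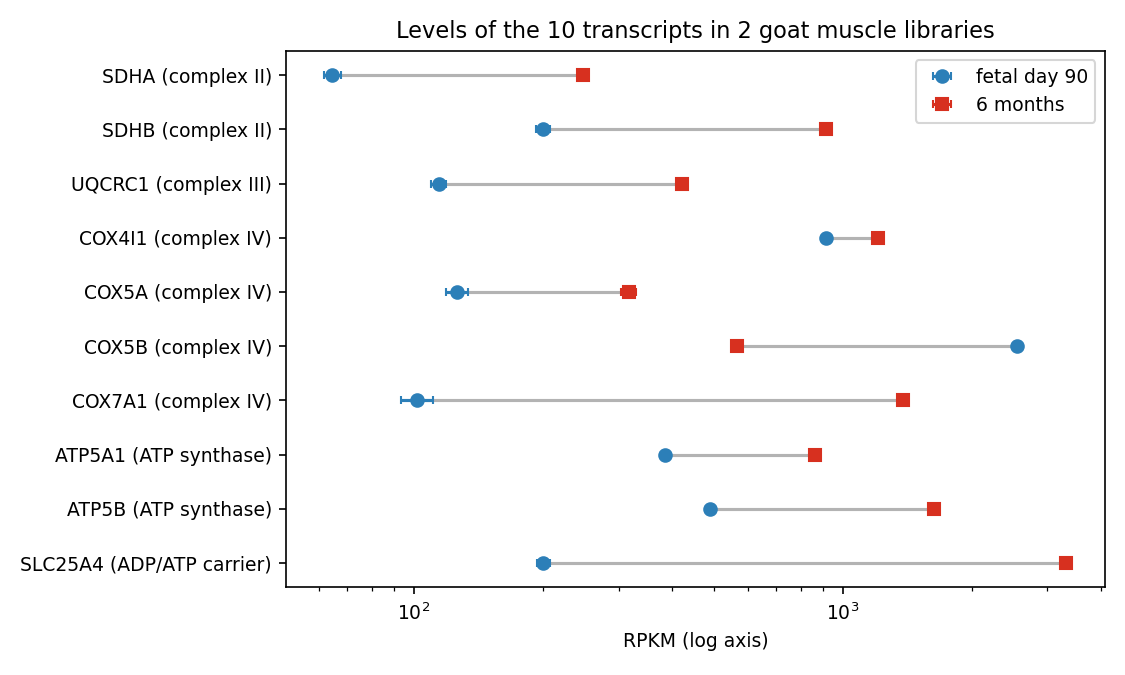
RPKM (log axis) of each transcript in the fetal day 90 library (circles) and the 6-month library (squares), with bars for the exact Poisson 95% interval of the reads. The 6-month square lies to the right of the fetal circle for 9 transcripts. The accession given as COX5B, at 2548 in the fetal library and 567 at 6 months, is the exception. Of all 9705 accessions compared, 2794 had the higher level at 6 months.

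Complex II is succinate dehydrogenase, which also works in the citric acid cycle. SDHA (NM_174178), its flavoprotein subunit, where succinate is oxidised, had an RPKM of 64.5 in the fetal library (1833 reads) and 248 at 6 months (5033 reads). SDHB (NM_001040483), the iron-sulfur subunit that carries the electrons onward, had 199.8 (2659 reads) and 913 (8678 reads). Both were thus higher at 6 months, SDHA by 3.85-fold (95% interval 3.65 to 4.06) and SDHB by 4.57-fold (4.38 to 4.78). SDHB was above SDHA in both libraries, by 3.10-fold in the fetal library and 3.68-fold at 6 months. The SDHA to SDHB ratio was accordingly a little lower at 6 months, at 0.84 of its fetal value (0.78 to 0.90).

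UQCRC1 (NM_174629), a core protein of complex III, stood for that complex alone. Its RPKM was 114 in the fetal library (2309 reads) and 421 at 6 months (6074 reads), a level 3.69-fold higher at 6 months (3.51 to 3.87). The size of this difference was close to those of the complex II subunits, and the UQCRC1 to SDHB ratio at 6 months was 0.81 of the fetal ratio (0.76 to 0.86).

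The 4 accessions given for complex IV did not move together. COX7A1 (NM_176674), the heart and skeletal muscle form of subunit 7A, had an RPKM of 102 in the fetal library (545 reads) and 1380 at 6 months (5274 reads). This was 13.6-fold higher at 6 months (12.4 to 14.8), a log2 difference of -3.75. A difference further toward 6 months was found for 62 of the 9705 accessions compared, and for 29 of the 720 abundant ones. COX5A (NM_001002891), a subunit on the matrix side of the complex, had an RPKM of 126 (1193 reads) and 317 (2137 reads), 2.51-fold higher at 6 months (2.34 to 2.70). COX4I1 (NM_001001439), the widespread form of subunit 4, which takes part in regulation of the enzyme by ATP, had 914 (11869 reads) and 1209 (11210 reads). It was already abundant in the fetal library, and its 1.32-fold higher level at 6 months (1.29 to 1.36), a log2 difference of -0.40, stayed under the threshold.

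COX5B is a zinc-binding subunit of complex IV, and the accession given under that name (NM_001034047) went the other way. It had an RPKM of 2548 in the fetal library (29570 reads) and 567 at 6 months (4699 reads), 4.49-fold higher in the fetal library (4.36 to 4.63), a log2 difference of 2.17. It was the most abundant of the 10 in the fetal library and the seventh at 6 months. Its listed length was 906 bases, beside 738 for COX5A, and reads covered 92.2% of it in the fetal library and 98.7% at 6 months. Mean RPKM was 1000 or more, a limit set after the values were seen, for 128 accessions including this one, of which 28.1% were higher at 6 months and 59.4% in the fetal library. COX4I1, ATP5B and SLC25A4 also lay at that level, with a mean RPKM of 1061, 1061 and 1754, and none of them was called higher in the fetal library. As the name was not checked, these values may not be those of COX5B. This accession decides every sum over complex IV, so group values are given with and without it.

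Summed over the 4 accessions, complex IV came to an RPKM of 3689 in fetal muscle and 3473 at 6 months, a ratio of 0.94. Without the COX5B accession the sums were 1142 and 2905, which is 2.55-fold higher at 6 months. The make-up of the complex IV transcripts differed between libraries. COX7A1 gave 2.76% of the summed fetal RPKM and 39.7% of the 6-month sum, and the COX5B accession 69.1% and 16.3%. With the COX5B accession left out, COX7A1 gave 8.91% and 47.5%, COX4I1 80.03% and 41.6%, and COX5A 11.1% and 10.9%. On the listed lengths COX4I1 thus led these 3 in the fetal library and COX7A1 at 6 months. That lead turns when only the covered stretch of each transcript is counted, since 487 of the 1014 bases of COX4I1 had no reads: COX4I1 then gave 85.3% and 54.02%, and COX7A1 5.93% and 37.3%. COX5A differed little on either basis.

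**Figure D2:**
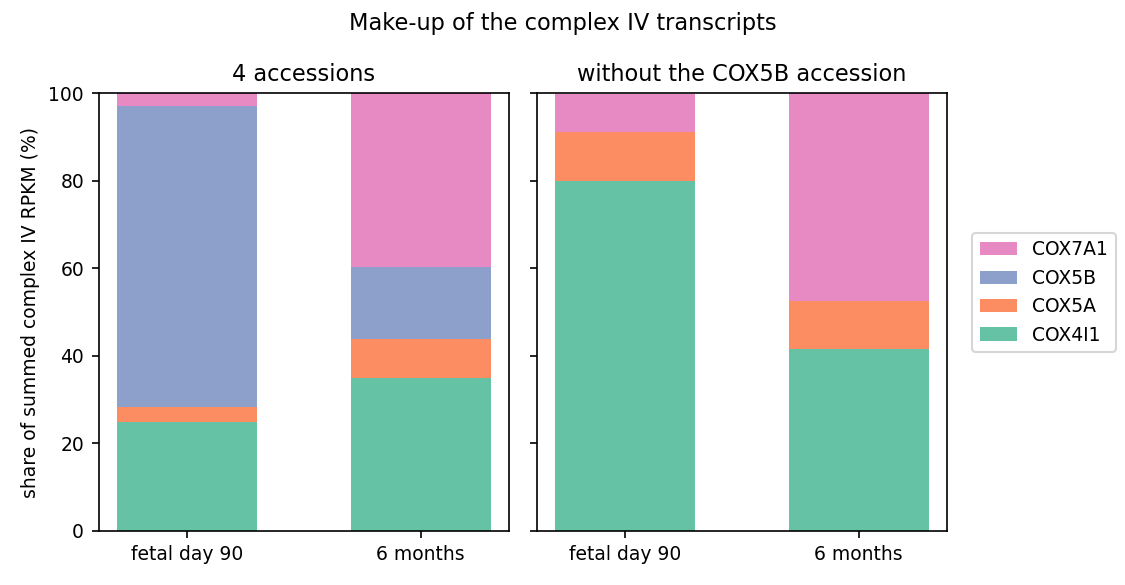
Share of the summed complex IV RPKM (vertical axis, %) given by each accession in the fetal day 90 and 6-month libraries, with all 4 accessions on the left and without the COX5B accession on the right. The COX7A1 segment is 2.76% of the fetal bar and 39.7% of the 6-month bar on the left, and 8.91% and 47.5% on the right.

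The catalytic head of ATP synthase holds alpha and beta subunits in equal number. ATP5A1 (NM_174684), the alpha subunit, had an RPKM of 384 in the fetal library (9415 reads) and 861 at 6 months (15046 reads). ATP5B (NM_175796), the beta subunit with the catalytic sites, had 489 (11111 reads) and 1632 (26444 reads). ATP5A1 was 2.24-fold higher at 6 months (2.18 to 2.30) and ATP5B 3.33-fold (3.26 to 3.41). With a log2 difference of -1.16, ATP5A1 was the called transcript nearest to the threshold. ATP5B exceeded ATP5A1 by 1.27-fold in the fetal library and by 1.90-fold at 6 months, and the ATP5A1 to ATP5B ratio at 6 months was 0.67 of its fetal value (0.65 to 0.69).

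SLC25A4 (NM_174658), the ADP/ATP carrier form that prevails in heart and skeletal muscle, had the largest difference of the 10. Its RPKM was 200.3 in the fetal library (3059 reads) and 3308 at 6 months (36059 reads). It was 16.5-fold higher at 6 months (15.9 to 17.1), a log2 difference of -4.04. Further toward 6 months than SLC25A4 lay 47 of the 9705 accessions compared, and 22 of the 720 abundant ones. By RPKM SLC25A4 ranked 371st among the accessions of the fetal library and 26th at 6 months. Against ATP5B, the carrier was at 0.41 of the synthase subunit in the fetal library and at 2.03-fold at 6 months, so this ratio was 4.95-fold higher at 6 months (4.74 to 5.17). The carrier belongs to a family of closely related genes, and whether reads of its relatives were kept apart depends on counting rules that the sources used here do not give.

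**Figure D3:**
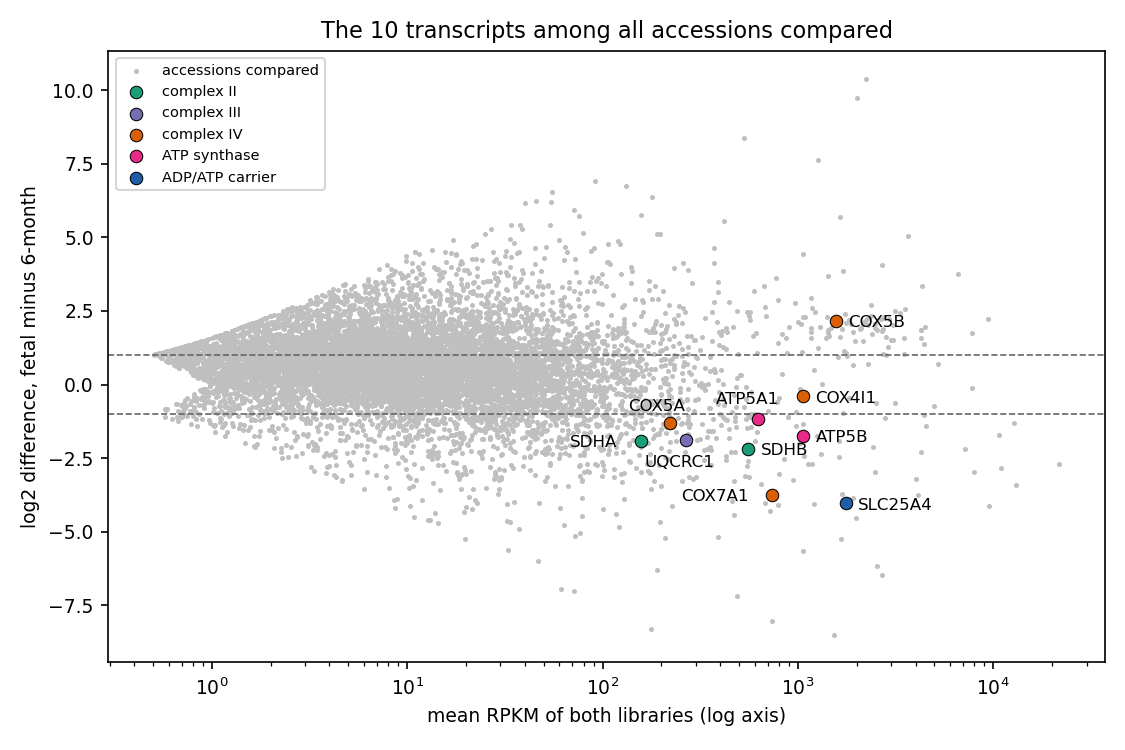
Log2 difference, fetal minus 6-month (vertical axis), against the mean RPKM of both libraries (log axis) for the 9705 accessions compared (grey) and the 10 transcripts (coloured by complex), with dashed lines at the threshold of 1 log2 unit in each direction. SLC25A4 at -4.04 and COX7A1 at -3.75 lie lowest of the 10. The accession given as COX5B, at 2.17, is the only one of them above 0.

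By complex, the 6-month to fetal ratio of the summed RPKM was 4.40 for complex II, 3.69 for complex III, 2.85 for ATP synthase and 16.5 for the carrier, beside 0.94 for complex IV or 2.55 without the COX5B accession. The sums were 264 and 1162 for complex II and 874 and 2493 for ATP synthase. The 5 transcripts SDHA, SDHB, UQCRC1, ATP5B and COX5A had log2 differences between -1.32 and -2.19, with ATP5A1 just above that range at -1.16. COX7A1 and SLC25A4, both forms typical of heart and muscle, stood more than 1.5 log2 units beyond this range.

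The order of the levels differed between the libraries. COX5B stands here for the accession given under that name. By RPKM over the listed length, it ran in the fetal library from COX5B and COX4I1 through ATP5B, ATP5A1, SLC25A4, SDHB, COX5A, UQCRC1 and COX7A1 to SDHA. At 6 months it ran from SLC25A4 and ATP5B through COX7A1, COX4I1, SDHB, ATP5A1, COX5B, UQCRC1 and COX5A to SDHA. Of neighbours in these orders, SLC25A4 and SDHB in the fetal library did not differ beyond counting error, with a ratio of 1.003 (0.95 to 1.06). The interval of the ratio left out 1 for all other neighbours, and its lower end came nearest to 1 for UQCRC1 over COX7A1 in the fetal library, at 1.12-fold (1.02 to 1.24). COX7A1 stood in the ninth place in the fetal library and in the third at 6 months, SLC25A4 in the fifth and the first, and SDHA was the lowest in both. Counted over the covered stretch, COX4I1 was second at 6 months, at 2326, ahead of ATP5B at 1634 and COX7A1 at 1606. ATP5B and COX7A1 then did not differ beyond counting error (ratio 1.02, 0.99 to 1.05). In the fetal library SDHB, at 232, then passed SLC25A4, at 202, and UQCRC1 and COX7A1 did not differ beyond counting error (ratio 1.04, 0.95 to 1.15).

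Ratios between transcripts of the same library do not depend on how the libraries are scaled to each other. In all, 10 such ratios were compared, and in each the 95% interval of the change left out 1. Many of the pairs shared a transcript, so these are not 10 separate results, and the intervals cover counting error only. The smallest change was that of SDHA to SDHB and the largest that of the COX5B accession to COX7A1, which went from 25.03 in the fetal library to 0.41 at 6 months. Without the COX5B accession, whose name was not checked, the largest change was that of COX4I1 to COX7A1. This ratio went from 8.98 to 0.88, a change of 10.2-fold (9.34 to 11.3). Over the covered stretch it went from 14.4 to 1.45, so that COX4I1 stayed above COX7A1 at 6 months. The COX5A to COX7A1 ratio went from 1.24 to 0.23, 5.40-fold (4.82 to 6.06). COX4I1 to COX5A went from 7.24 to 3.82, 1.90-fold (1.76 to 2.05). Both ratios with COX5A depend on the length counted, as reads covered 69.9% of it in the fetal library and 84.7% at 6 months. Over the covered stretch the change would be larger for COX5A to COX7A1 and smaller for COX4I1 to COX5A, both outside these intervals. The transcripts therefore differed between libraries by unequal factors, also within a complex.

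**Figure D4:**
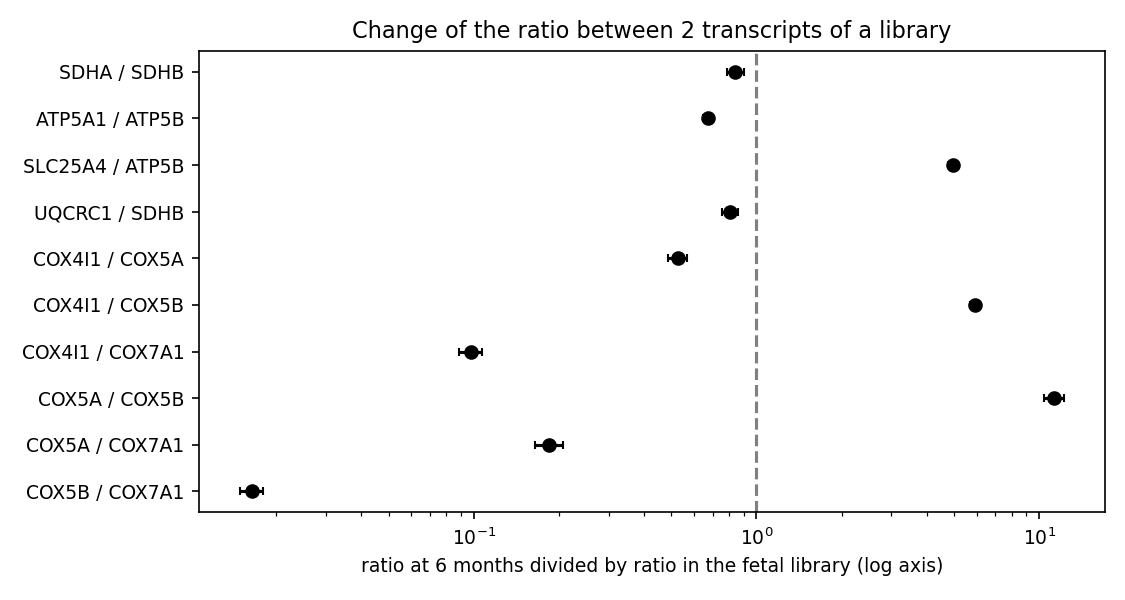
Ratio of the levels of 2 transcripts at 6 months divided by the same ratio in the fetal library (log axis), for 10 pairs, with exact conditional 95% intervals of the reads and a dashed line at 1. SDHA to SDHB, at 0.84, lies nearest to the line, and SLC25A4 to ATP5B is at 4.95.

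Coverage was much alike in both libraries, with exceptions. Reads covered 91.02% of SDHA and 99.9% of ATP5B in each library. COX4I1 was covered over 52.0% of its listed length in both, leaving 487 of its 1014 bases without reads at a depth of 1053 read bases per base in the fetal library and 995 at 6 months. Counted over the covered stretch alone, its RPKM would be 1758 in the fetal library and 2326 at 6 months, so its level relative to the other transcripts depends on the listed length, while the ratio between libraries does not. COX5A was covered over 69.9% in the fetal library and 84.7% at 6 months, at 145 and 261 read bases per base. Over the covered stretch its RPKM would be 180 and 374, so the ratio between libraries would be smaller than the 2.51-fold on the listed length.

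On RPKM most accessions lay toward the fetal library, with a median log2 ratio of 0.58 over the 8201 accessions that reached an RPKM of 1 in both. Centring on that shift moved every difference toward 6 months, so a transcript called higher at 6 months could not lose its call. With it, 8 of the 10 transcripts were called higher at 6 months, beside 16.8% of all accessions. The COX5B accession was still called higher in the fetal library, beside 20.9%. The differences then ran from -4.62 for SLC25A4 to 1.59 for the COX5B accession. With centring on a trimmed mean ratio COX4I1 was also called higher at 6 months, at -1.05. Then 9 of the 10 were higher at 6 months, beside 17.9% of all accessions (19.7% in the fetal library). Counts of the 10 were 8 and 1 with transcripts-per-total scaling (all accessions 10.6% at 6 months and 32.2% fetal), 8 and 1 when the 50 most abundant accessions were left out of the totals (12.5% and 30.8%), and 8 and 1 with a pseudocount of 5 (6.75% and 18.7%). At a threshold of 2 log2 units, SDHB, COX7A1 and SLC25A4 were higher at 6 months (3.49% of all accessions) and the COX5B accession in the fetal library (10.8%).

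**Figure D5:**
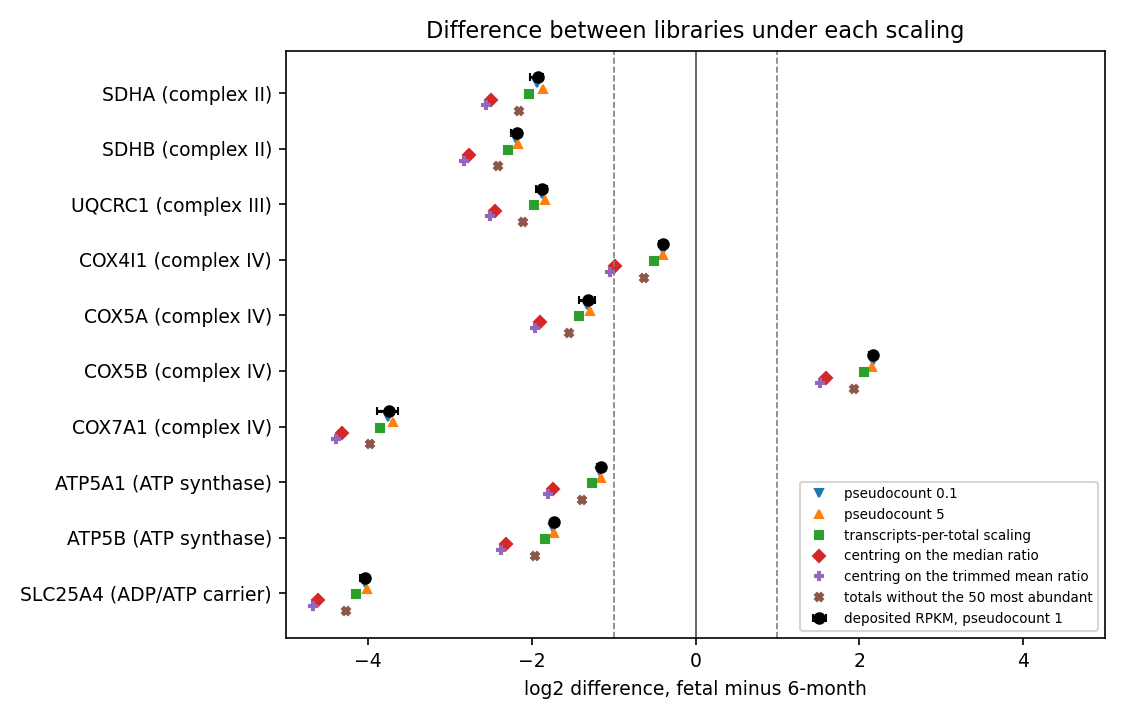
Log2 difference, fetal minus 6-month (horizontal axis), of each transcript on the deposited RPKM (black, with the 95% interval of the read ratio) and under 6 alternatives of pseudocount and scaling, with dashed lines at the threshold. Each transcript keeps its side of 0 under all 6. The scalings all move the differences toward 6 months, so only the COX5B accession could have crossed 0. COX4I1 passes the line at -1 with centring on the trimmed mean ratio.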

How the data were processed

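The members and the planned lists were chosen with earlier results of these data known. Per the file headers, each library's deposited table gives the count of unique reads per RefSeq accession, the transcript length in bases, the percent of that length covered, and the RPKM. The aligner, counting rules, use of strand, transcript set and genome build are not stated in them or in the labels. These counts, as deposited, summed to the header totals, and the deposited RPKM followed from counts, lengths and totals. Accessions were matched without version.

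From these values, the 6-month log2(RPKM + 1) was subtracted from the fetal one for accessions that reached an RPKM of 1 in one library or both. This pseudocount of 1 understates changes of low transcripts. With 1 library per stage no test was made. Read ratios have exact conditional binomial 95% intervals, ratios of ratios exact conditional odds ratio intervals, and levels exact Poisson intervals. Reads without molecular identifiers are not separate molecules. A read span of 90 bases, from accessions with 1 read, gave the depth per base. The calling rule and the read ratio interval were run on simulated Poisson counts drawn from the pooled read shares. The interval assumes such counts, so this checked the computation only and not variation between animals or libraries. All 10 members are named. The planned list of other pathway genes, the marker lists and the search of promoters could not be used, since accessions were not paired with symbols and no sequence was at hand. Alternatives covered pseudocount, scaling, thresholds and minimum levels. The work was done in Python 3.11.15 with SciPy 1.17.1, NumPy 2.4.6 and pandas 2.3.3, and plots with matplotlib 3.10.9.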

Additional observations from a re-analysis of the deposited data

How the results depend on the processing

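No paired analysis was possible because each stage had 1 library, and no replicate could be left out. The count of 8 transcripts higher at 6 months became 3 with a threshold of 2 log2 units, which 3.49% of all accessions compared passed in that direction. It lay between 8 and 9 under the other alternatives, of which only the pseudocount of 5 could have lowered it. The minimum levels lay below all 10 transcripts, the 1.5-fold threshold was looser, and neither transcript left out was among the 8. The scalings moved every difference toward 6 months, as given below. The count of 1 higher in the fetal library became 0 without the COX5B accession, by construction. The median difference of -1.80 became -1.91 with transcripts-per-total scaling, -2.38 with centring on the median ratio, -2.45 with centring on the trimmed mean ratio and -2.03 when the 50 most abundant accessions were left out of the totals. It was -1.87 without the COX5B accession and -1.87 without COX4I1. The complex IV ratio of 0.94 became 2.55 without the COX5B accession. Leaving out COX5B or COX4I1 was chosen after seeing the data. None of the 10 transcripts changed direction under the 6 alternatives of pseudocount and scaling. A pseudocount cannot reverse a difference, and all 4 scalings moved every difference toward 6 months. Only the COX5B accession could therefore have changed direction. Depth limited COX7A1 most, with 545 fetal reads.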
